A study of Mus musculus with 16 samples.

Results

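The genes described here are 10 components of the Notch pathway that act in the embryonic retina: the ligand genes Dll1, Dll3, Dll4 and Jag1, the receptor genes Notch1 and Notch2, the receptor modifier Mfng, the nuclear effector Rbpj and the target genes Hes1 and Hes5. They were chosen by name from 21887 protein-coding genes of the mouse, and all 10 were found in the gene table. For each gene, every CUT&RUN peak of the transcription factors Foxn3, Foxn4 and Rfx3 was collected that overlapped the gene body or the 50 kb on either side of it. CUT&RUN uses an antibody on unfixed cells to direct micrococcal nuclease to a protein, and the DNA released around that protein is sequenced. The cells came from pooled retinas of CD-1 mice, an outbred stock, at embryonic day 16, with about 300000 cells per assay. No genetic change or drug treatment is named in the labels. Foxn3 was assayed in 4 libraries, whose labels give a replicate number and name no experiment or batch. Rfx3 and Foxn4 were each assayed in 2. Control libraries were made with non-specific immunoglobulin G (IgG): rabbit IgG went with Foxn3 (4) and with Rfx3 (2), and mouse IgG with Foxn4 (2). Nuclease digestion took 1 h, but about 12 h for Foxn4 and its mouse IgG, so antibody, control species and digestion time cannot be told apart in any contrast with Foxn4.

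In Notch signalling a Delta or Jagged ligand on a cell binds a Notch receptor on its neighbour. The receptor is cleaved, and its intracellular part enters the nucleus, where it joins the DNA-binding protein RBPJ and switches on genes such as Hes1 and Hes5. HES proteins repress proneural genes, and in the developing retina the pathway is known for keeping progenitors undifferentiated and for its part in cell fate choices. Foxn4, a forkhead factor of retinal progenitors, is known for its role in amacrine and horizontal cell fates and has been linked to Dll4. Rfx3 is a winged-helix factor known for its control of ciliary genes, and Foxn3 is a forkhead factor of the same subfamily as Foxn4.

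Each antibody had a single deposited peak list, with 2794 peaks for Foxn3, 2956 for Foxn4 and 3981 for Rfx3. No list separates the replicates, so no value below has a spread between libraries and no test between conditions was possible. IgG signal and read depth per library were not analysed here. Since depth and peak threshold are unknown, the lack of a peak at a gene does not show that the factor was absent there. The score of a peak is the authors' own value, with no stated scaling. It is given as deposited, with its percentile within the same list (the percent of that list's peaks with a lower score, ties split evenly), and it was not compared in size between lists. Retinal identity could not be checked, because peaks carry no expression values.

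Peaks lay in the windows of 6 of the 10 genes: Dll1, Dll4, Notch1, Mfng, Hes1 and Hes5. Dll3, Jag1, Notch2 and Rbpj had no peak of any factor. Among all protein-coding genes the share with a peak of at least 1 factor in the same window was 40.4%. Foxn3 peaks lay at 4 of the 10 genes (Dll1, Notch1, Mfng and Hes1), against 27.4% of all genes. Foxn4 peaks lay at 3 (Notch1, Hes1 and Hes5), against 19.9%. Rfx3 peaks lay at 5 (Dll1, Dll4, Notch1, Mfng and Hes5), against 33.0%. Only Notch1 had peaks of every factor in its window, against 12.5% of all genes. With only 10 genes these counts are near the background, and nothing is read from them about the genes as a group. The windows held 6 Foxn3, 8 Foxn4 and 9 Rfx3 peaks, 23 in all, and 8 of the 23 lay in the Notch1 window.

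**Figure D1:**
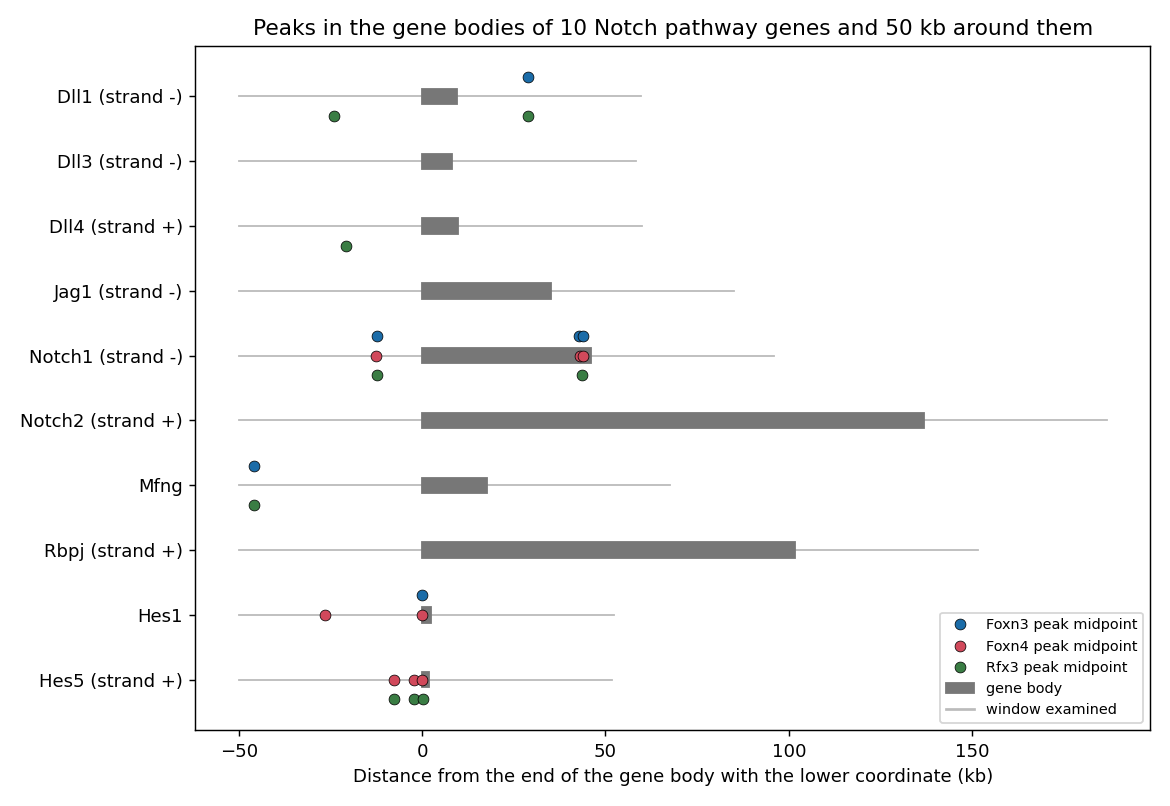
Positions of Foxn3 (blue), Foxn4 (red) and Rfx3 (green) peak midpoints around the 10 genes; the x axis is the distance in kb from the end of the gene body with the lower coordinate, grey bars are gene bodies and thin lines the windows examined, and a strand is given where the promoter table has it. Dll3, Jag1, Notch2 and Rbpj have no points. Notch1 has points inside the gene near one end and 12.3 to 12.5 kb beyond the other, and the Hes5 points all lie at its start or upstream.

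Merging overlapping peaks left 11 separate regions. Of these, 2 had all 3 factors, both in the Notch1 window: 1 inside Notch1 and the other at the start of another gene, Sec16a. A further 3 had Foxn4 and Rfx3 without Foxn3, all at Hes5. Foxn3 and Rfx3 without Foxn4 were found at 2 regions, in the windows of Dll1 and Mfng, and Foxn3 and Foxn4 without Rfx3 at 1, beside Hes1. The remaining 3 had a single factor, 2 with Rfx3 (Dll1 and Dll4) and 1 with Foxn4 (Hes1). Of the 6155 merged regions of the whole genome, 14.2% had all 3 factors, 22.1% Foxn3 with Rfx3, 3.83% Foxn3 with Foxn4 and 2.89% Foxn4 with Rfx3. Rfx3 alone made up 25.3%, Foxn4 alone 26.9% and Foxn3 alone 4.74%, a class with no region here. The 3 regions of Foxn4 with Rfx3 are neighbours at Hes5, so they are not separate observations.

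Among the ligands, Dll1 (chromosome 17, 15367354 to 15376932, minus strand) had no peak in its body. Dll1 is the Delta ligand that newborn neurons present to neighbouring progenitors. Its window held a Foxn3 peak at chr17:15395864-15396389 with a score of 286 (percentile 97.6), the highest percentile of any peak in these 10 windows. An Rfx3 peak at chr17:15396005-15396512, with a score of 499 (percentile 93.6), shared 385 bp with it. Both lay about 19 kb upstream of Dll1 but at the start region of another gene, Fam120b, which has a start at 15396202 and another at 15396246 in the promoter table. The Foxn3 midpoint was 76 bp before the first and the Rfx3 midpoint 12 bp after the second, and the midpoints were 132 bp apart. The other peak of the window was an Rfx3 peak downstream of Dll1 at chr17:15342982-15343440, with a score of 28 (percentile 10.5), met by no other factor. It lay 24.1 kb from Dll1, which was its nearest protein-coding gene. The high-ranking peaks near Dll1 thus sit at a neighbour, and the peak for which Dll1 is nearest ranks low in its list.

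The 250 bases before the first start of Fam120b are shown because the Foxn3 peak covers all of them and the Rfx3 peak 197 (RefSeq, GRCm38.p6, chr17:15395952-15396201, plus strand). Capitals mark any match, on either strand, to letters known from sites of these protein families. For RFX proteins these were GTTGCC and the longer form GTTGCCNNG, which contains it, so that their matches coincide. For FOXN proteins the letters GACGC were searched. For forkhead proteins at large they were GTAAACA. For RBPJ they were GTGGGAA.
Fam120b: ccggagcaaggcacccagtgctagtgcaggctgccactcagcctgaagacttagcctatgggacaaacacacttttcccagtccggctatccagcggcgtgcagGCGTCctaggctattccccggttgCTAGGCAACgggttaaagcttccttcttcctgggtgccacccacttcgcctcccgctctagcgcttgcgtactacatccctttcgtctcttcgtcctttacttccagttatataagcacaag
The capitals are a GACGC match on the opposite strand, 146 to 142 bases before the start, and a GTTGCCNNG match on the opposite strand, 122 to 114 bases before it. Foxn3 and Rfx3 peaks cover both matches. Of 32851 promoter windows of this length, the FOXN letters are held by 22.6%, the shorter RFX letters by 10.4%, the longer by 4.09%, the forkhead letters by 3.17% and the RBPJ letters by 5.42%.

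Dll4 (chromosome 2, 119325784 to 119335666, plus strand), a Delta ligand of retinal progenitors and vessels, had a single peak in its window, of Rfx3. It lay at chr2:119304528-119305367, 20.8 kb before Dll4, with a score of 155 (percentile 73.4). Its nearest protein-coding gene was Vps18, at 6494 bp, and neither forkhead factor had a peak that overlapped it. The nearest Foxn4 peak to Dll4 was 122 kb away, inside Ino80 (percentile 36.7), and the nearest Foxn3 peak 283 kb away, inside Nusap1 (percentile 7.5). No Foxn4 peak was therefore listed at the ligand gene that background knowledge links to Foxn4.

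Dll3 (chromosome 7, 28293555 to 28301785, minus strand), a divergent Delta protein known to inhibit signalling within its own cell, and Jag1 (chromosome 2, 137081451 to 137116520, minus strand), a Jagged ligand, had no peak. Around Dll3 all 3 factors shared a site 70.8 kb away, beyond the window, within 130 bp of the body of Plekhg2. The Foxn4 peak there had a percentile of 78.3, the Rfx3 peak 58.6 and the Foxn3 peak 17.6. Around Jag1 the nearest peaks of each factor were 189 to 190 kb away, in Slx4ip. Across the 10 genes, the peaks just inside the 50 kb limit were those at Mfng, 45.8 kb from the gene body, and the first peak outside it was an Rfx3 peak 63.7 kb from Dll1 (percentile 41.2), nearest to Fam120b.

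Notch1 (chromosome 2, 26457902 to 26503822, minus strand), the main receptor gene of retinal progenitors, had 3 Foxn3, 3 Foxn4 and 2 Rfx3 peaks. Of these 8 peaks, 5 lay inside the gene, with midpoints 1995 to 3053 bp after its start. The Foxn4 peak at chr2:26500605-26501165 had a score of 16 (percentile 96.2), and the Foxn3 peak at chr2:26500411-26501128, sharing 524 bp with it, a score of 101 (percentile 86.8). Nearer the start, the Foxn4 peak at chr2:26501685-26501969 had a score of 13.3 (percentile 92.4) and the Foxn3 peak at chr2:26501628-26501987 a score of 15 (percentile 15.0). A single Rfx3 peak of 2058 bp at chr2:26500488-26502545, with a score of 478 (percentile 93.3), covered both peaks nearer the start, all of the other Foxn4 peak and 641 bp of the other Foxn3 peak. The site farther into the gene ranked high for both forkhead factors, and the one nearer the start ranked high for Foxn4 and low for Foxn3. The gene table holds no exons, and whether these peaks fall in exons or introns is left out. None of the 5 peaks reached the 250 bases before the Notch1 start.

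The other Notch1 peaks formed a site of all 3 factors downstream of the gene, 12.3 kb from its end by the Foxn3 midpoint. Foxn3 covered chr2:26445153-26446093 (score 221, percentile 96.0), Foxn4 chr2:26445181-26445568 (score 11.6, percentile 87.6) and Rfx3 chr2:26445100-26446138 (score 589, percentile 95.4). Foxn3 and Rfx3 midpoints were 4 bp apart, and the Foxn4 midpoint was 249 bp from that of Foxn3. This site lies at the start of Sec16a, whose product acts at sites of protein export from the endoplasmic reticulum. The midpoints were 158 bp (Foxn4) to 407 bp (Foxn3) before that start. The bases before the Sec16a start are shown because peaks of every factor cover all 250 of them (RefSeq, GRCm38.p6, chr2:26445217-26445466, minus strand, capitals as above).
Sec16a: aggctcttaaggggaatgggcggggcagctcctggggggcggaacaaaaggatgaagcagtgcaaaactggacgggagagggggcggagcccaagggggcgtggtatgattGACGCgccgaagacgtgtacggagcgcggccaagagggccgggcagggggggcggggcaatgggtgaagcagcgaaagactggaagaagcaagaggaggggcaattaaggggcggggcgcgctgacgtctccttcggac
It holds a single match, GACGC, 139 to 135 bases before the start. The 250 bases before Notch1 hold 1 GACGC match and none of the other letters searched.

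**Figure D2:**
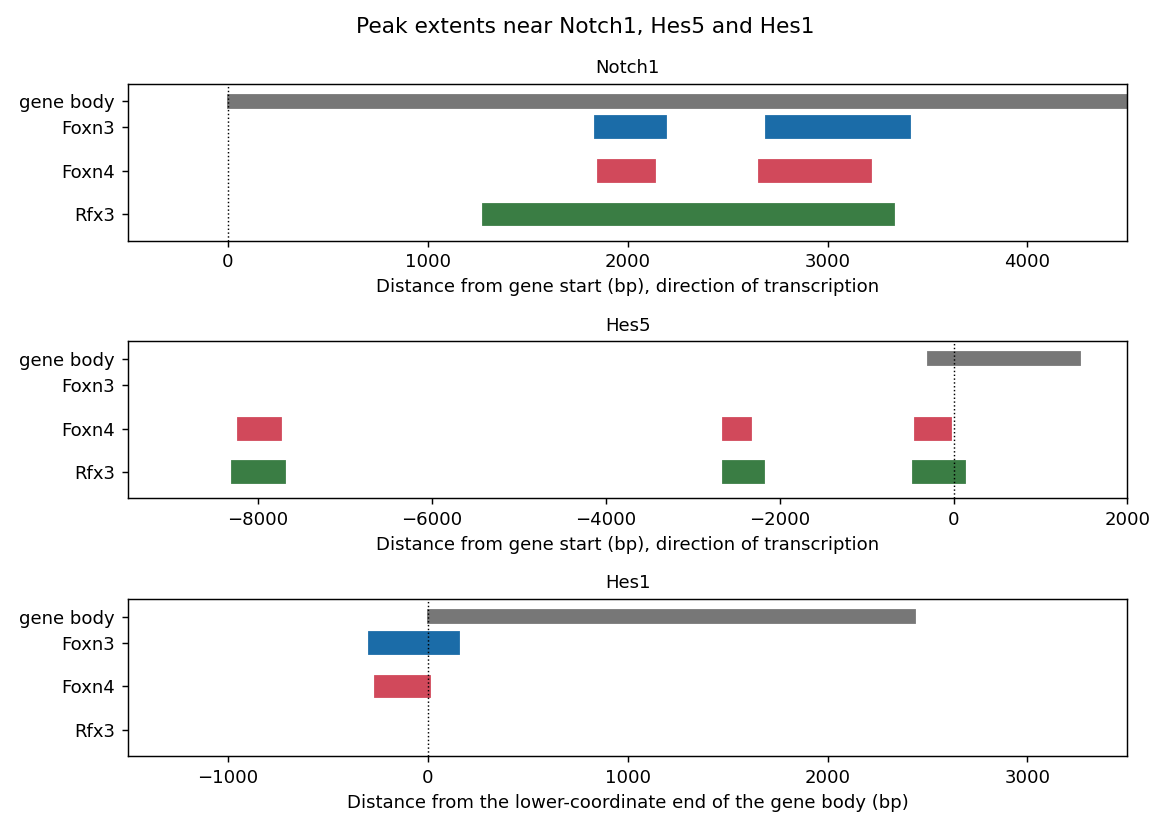
Extents of peaks near Notch1, Hes5 and Hes1, with 1 row per factor (Foxn3 blue, Foxn4 red, Rfx3 green) and the gene body in grey; the x axis is the distance in bp from the gene start in the direction of transcription for Notch1 and Hes5, and from the lower-coordinate end of the body for Hes1. At Notch1 the Rfx3 peak of 2058 bp spans a pair of Foxn3 and Foxn4 peaks, Hes5 has no Foxn3 peak and Hes1 no Rfx3 peak.

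Notch2 (chromosome 3, 98013538 to 98150367, plus strand), the other receptor gene, had no peak in the longest window of the 10, 237 kb. Its nearest peaks were 355 kb away for Foxn3, 786 kb for Rfx3 and 1412 kb for Foxn4. The receptor genes thus lay apart, with 8 peaks in the Notch1 window and none in that of Notch2.

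Mfng (chromosome 15, 78755882 to 78773516), which encodes a Fringe enzyme that adds sugar to Notch receptors and so alters their response to ligands, had no peak in its body. A Foxn3 peak at chr15:78709760-78710062 (score 116, percentile 88.8) and an Rfx3 peak at chr15:78709728-78710097 (score 155, percentile 73.4) lay 46.0 kb from it. Their midpoints were 1 bp apart, and both lay inside Elfn2, 8.9 kb from its start. No Foxn4 peak lay within 289 kb of Mfng.

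Rbpj (chromosome 5, 53555779 to 53657445, plus strand), whose product binds DNA for all Notch receptors, had no peak in its 202 kb window. The nearest were 152 kb away for Rfx3 and 191 kb for Foxn4, both in Tbc1d19, and 280 kb for Foxn3, in Smim20.

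The target genes were the only members with a peak within 1 kb of a gene start or, for Hes1, of an end of the gene body. Hes1 (chromosome 16, 30065357 to 30067796) encodes a repressor that keeps progenitors from differentiating. A Foxn3 peak at chr16:30065065-30065515 had a score of 13.1 (percentile 9.6), and a Foxn4 peak at chr16:30065093-30065368 had a score of 4.44 (percentile 10.3). The Foxn4 peak lay wholly inside the Foxn3 peak, 276 bp in all, and their midpoints were 67 bp (Foxn3) and 127 bp (Foxn4) outside the lower-coordinate end of the gene. A second Foxn4 peak at chr16:30038640-30039011 (score 5.33, percentile 22.3) lay 26.5 kb away and met no other list. All 3 peaks had percentiles of 22.3 or lower, and no other protein-coding gene lies in this window. The nearest Rfx3 peak was 223 kb from Hes1.

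Hes5 (chromosome 4, 154960626 to 154962372, plus strand), a repressor of the same family, had 3 Foxn4 and 3 Rfx3 peaks and no Foxn3 peak. At the start, Foxn4 covered chr4:154960484-154960892 (score 8.89, percentile 71.5) and Rfx3 chr4:154960462-154961049 (score 38, percentile 20.5). Their midpoints were 235 bp and 168 bp before the start of transcription at 154960923. Upstream, a second site held Foxn4 at chr4:154958268-154958596 (score 5.33, percentile 22.3) and Rfx3 at chr4:154958266-154958747 (score 39, percentile 21.4). The third site held Foxn4 at chr4:154952689-154953188 (score 6.22, percentile 36.7) and Rfx3 at chr4:154952627-154953231 (score 13, percentile 0.2). At each of the 3 sites the Foxn4 peak lay wholly inside the Rfx3 peak, with midpoints 67, 74 and 9 bp apart from the start outwards. Hes5 was the nearest protein-coding gene to all 6. The Foxn4 peak at the start was above the median of its list, and the other 5 were below it. The nearest Foxn3 peak was 96.1 kb away, inside Ttc34 (percentile 86.5).

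Hes5 was the only gene of the 8 with an entry in the promoter table whose window before the start met a peak (RefSeq, GRCm38.p6, chr4:154960673-154960922, plus strand). Hes1 and Mfng were not in that table. Rfx3 covered all 250 bases and Foxn4 220 of them. All 250 bases lie within the annotated gene body, which begins upstream of the start given in the promoter table.
Hes5: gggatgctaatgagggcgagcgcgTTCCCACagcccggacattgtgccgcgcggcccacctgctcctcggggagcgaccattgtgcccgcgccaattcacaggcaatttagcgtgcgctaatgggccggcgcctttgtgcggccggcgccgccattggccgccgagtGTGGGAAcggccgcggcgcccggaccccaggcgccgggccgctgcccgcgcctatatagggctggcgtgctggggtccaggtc
The capitals are matches to GTGGGAA, the letters of RBPJ sites. They lie 226 to 220 bases before the start, read on the opposite strand, and 83 to 77 bases before it, read on the printed strand. Foxn4 and Rfx3 peaks cover both. The window held no match to the RFX, FOXN or forkhead letters. Across the 8 genes in the table, with 10 windows in all because Dll1 and Rbpj have 2 starts each, the RBPJ letters were found at Hes5 alone. The FOXN letters occurred before Dll3, Jag1 and Notch1, in a single window of Dll1 and in both windows of Rbpj. Over all promoters 22.6% held them, a share counted by window and not by gene. A window of Rbpj held up to 3 matches, but the Rbpj windows overlap and can hold the same matches. The RFX and forkhead letters occurred in none. Over all promoter windows the RBPJ letters were in 5.42%, the shorter RFX letters in 10.4% and the forkhead letters in 3.17%. These are descriptions of letters. The G and C content of the 10 windows ran from 52% (Dll3) to 72% (Notch2), with 71.6% at Hes5. The median over all promoter windows was 52.4%, and the part of this content in the matches was not tested.

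Within 1 kb of a gene start, Foxn3 had a peak at 1 of the 10 genes (Hes1), against 9.10% of all genes. Foxn4 had one at 2 (Hes1 and Hes5), against 4.90%, and Rfx3 at 1 (Hes5), against 11.0%. For Hes1, Mfng and the other genes without an entry in the promoter table, either end of the gene body was used. No ligand, receptor, Mfng or Rbpj had a peak there. With so few genes, these counts are too small to set apart from the background.

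**Figure D3:**
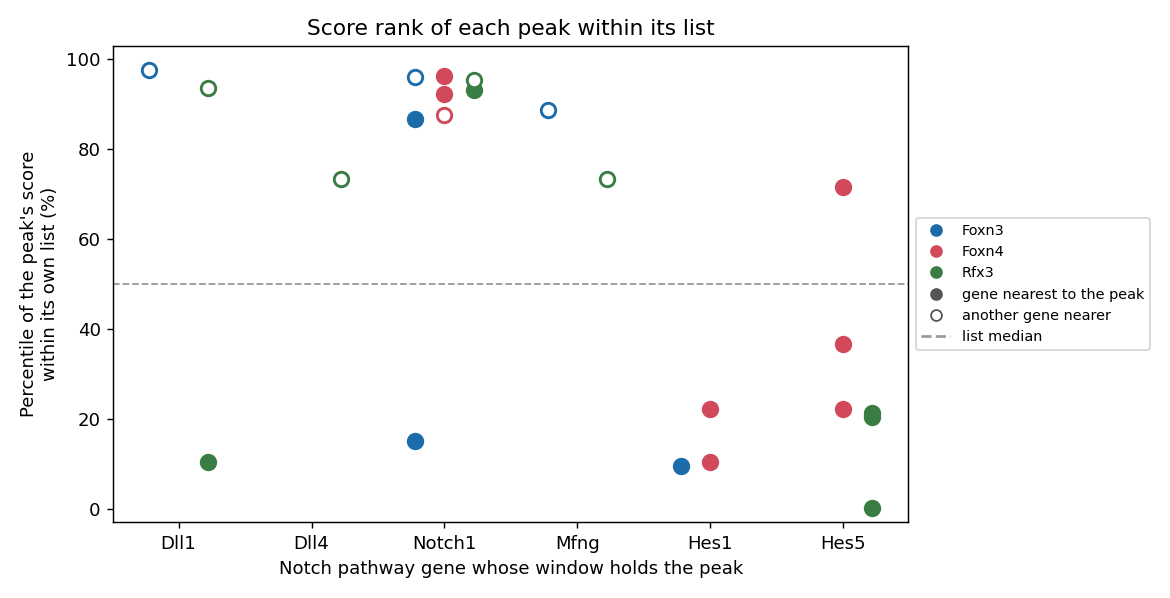
Percentile of each peak's score within its own list (y axis, percent) for the 6 genes with peaks; filled points mark peaks nearest to the named gene, open points those nearer to another gene, and the dashed line the list median. All Hes1 and Hes5 peaks except the Foxn4 peak at 71.5 sit below the median, and the open points sit at 73.4 or above.

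Score ranks differed among the sites. Of the 23 peaks, 15 had the named gene as the nearest protein-coding gene: 3 of 6 for Foxn3, 7 of 8 for Foxn4 and 5 of 9 for Rfx3. The 8 peaks nearer to another gene (Fam120b, Sec16a, Elfn2 or Vps18) all had percentiles of 73.4 or higher. At Hes1 and Hes5 the Foxn4 percentiles ran from 10.3 to 71.5 with a median of 22.3 over 5 peaks, and the 3 Rfx3 percentiles from 0.2 to 21.4. At the other genes the 3 Foxn4 percentiles, all in the Notch1 window, ran from 87.6 to 96.2. The 6 Rfx3 percentiles there ran from 10.5 to 95.4 with a median of 83.4 and overlapped those at Hes1 and Hes5. The 5 Foxn3 percentiles there ran from 15.0 to 97.6, against 9.6 for the single Foxn3 peak at Hes1. Of the peaks in the body of Notch1, 4 had percentiles of 86.8 or higher and 1 had 15.0. These peaks come from few loci and are given as a description.

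Most peaks in these windows overlapped a peak of another factor. Of the Foxn3 peaks 6 of 6 met another list, of the Foxn4 peaks 7 of 8 and of the Rfx3 peaks 7 of 9. In the whole lists the shares were 89.5%, 44% and 60.8%. For Foxn4, 87.5% (95% Wilson interval 52.9% to 97.8%) stood beside that 44% (42.3% to 45.8%). Foxn4 peaks met Rfx3 in 6 of 8 cases (75%, 40.9% to 92.9%), against 36% of the whole Foxn4 list, and Foxn3 in 4 of 8 (50%, 21.5% to 78.5%), against 38%. The intervals cover counting error only and treat peaks as independent. The 8 peaks lie at 3 genes and are not independent, so no excess is read from the intervals and the difference was not tested. The whole Foxn4 list also holds peaks outside every gene window, since 2302 of its 2956 peaks lie in such a window.

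Peak density was set beside that of all genes to allow for window length. The 10 windows span 1.37 Mb and held 4.38 Foxn3, 5.84 Foxn4 and 6.57 Rfx3 peaks per Mb. Over the joined windows of all protein-coding genes, 1687 Mb, the densities were 1.53, 1.36 and 2.18 peaks per Mb. Joining counts overlapping windows once, so gene-dense stretches weigh less there than in an average over genes. The densities of the 10 windows and of all genes are therefore not like for like. For the 53 other pathway genes described below the densities were 4.68, 2.52 and 6.61 peaks per Mb. Without Notch1 those of the 10 genes were 2.45, 4.09 and 5.72 peaks per Mb. No interval can be given to these ratios, since neighbouring peaks are not independent.

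The rest of the pathway was described with 53 further genes, all matched. In the 50 kb windows Foxn3 had a peak at 29 (54.7%), Foxn4 at 17 (32.1%) and Rfx3 at 32 (60.4%), beside the background shares given above. Peaks of every factor were present at 15 (28.3%), against 12.5% of all genes. Peaks of at least 1 factor were present at 37 (69.8%), against 40.4% of all genes, and 16 had none. These windows held a median of 4 other protein-coding genes, against 2 for the 10 genes and 3 over all genes, and the part of such neighbours in these counts was not tested. Only 16 of 40 pairings of a Foxn3 peak with a gene had that gene as the nearest, 9 of 21 for Foxn4 and 21 of 55 for Rfx3. Within 1 kb of a gene start the counts were 6 genes for Foxn3 (11.3%), 5 for Foxn4 (9.43%) and 7 for Rfx3 (13.2%), beside 9.10%, 4.90% and 11.0% over all genes.

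**Figure D4:**
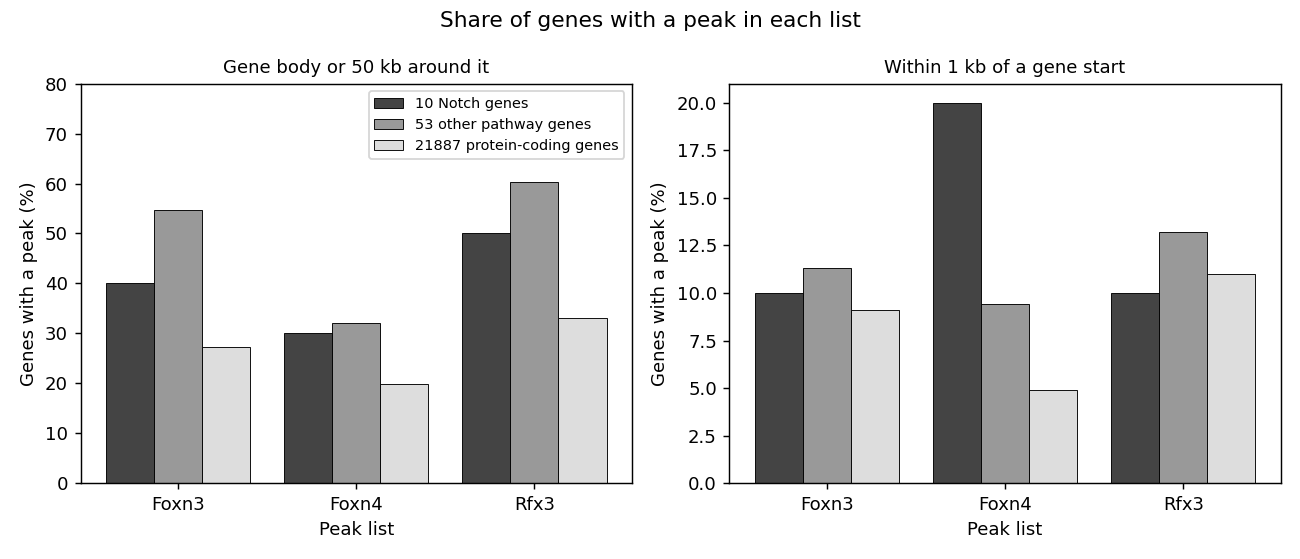
Percent of genes with a peak (y axis) in each peak list, in the gene body or 50 kb around it (left) and within 1 kb of a gene start (right), for the 10 Notch genes, the 53 other pathway genes and all 21887 protein-coding genes. Of the 10 genes, 4, 3 and 5 have a Foxn3, Foxn4 or Rfx3 peak in the wide window, and 1, 2 and 1 near a start, where the 10-gene bars rest on 1 or 2 genes.

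Peaks of every factor lay in the windows of the receptor gene Notch4, the Fringe genes Lfng and Rfng, the cleavage genes Adam17, Aph1a and Psenen, the coactivator genes Maml1 and Maml3, the RBPJ cofactor gene Rita1, the modulators Numb, Dtx2, Fbxw7 and Nrarp, and the repressor genes Hes6 and Hes7. At Rfng, Adam17, Aph1a, Rita1, Dtx2, Nrarp and Hes7 every peak in the window lay nearer to another gene. Among the sites where the 3 factors met, only those at Numb and Maml3 had the pathway gene as the nearest. By the Foxn3 midpoint, the 3 factors met 40331 bp from Rfng, nearest to Fasn, 41550 bp from Nrarp, nearest to Tubb4b, and 15396 bp from Notch4, nearest to Agpat1. Notch4 also had a Foxn3 peak (percentile 55.7) overlapping an Rfx3 peak (79.0) in its body. Lfng had a pair of sites in its body: Foxn3 at chr5:140608700-140609056 (percentile 72.5) with Rfx3, and Foxn4 at chr5:140611125-140611347 (percentile 62.5) with Rfx3. Inside Maml3, all 3 factors met at 1 site, with percentiles of 93.5 for Foxn3, 78.3 for Foxn4 and 92.9 for Rfx3.

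Within 1 kb of a gene start, 11 of the 53 genes (20.8%) had a peak of at least 1 factor, against 13.2% of all genes. Numb, whose product antagonises Notch receptors, was the only one with every factor, all within 133 bp of its start: Foxn3 at chr12:83921851-83922203 (percentile 49.6), Foxn4 at chr12:83921899-83922236 (62.5) and Rfx3 at chr12:83921758-83922333 (90.2). Peaks of every factor covered all 250 bases before this start, which held no match to any of the letters searched. Foxn3 and Rfx3 met at the starts of Mib2, a ubiquitin ligase that acts on ligands, Psenen, a gamma-secretase subunit, and Hdac1, a histone deacetylase. The Foxn3 and Rfx3 percentiles were 90.2 and 86.3 at Mib2, 53.3 and 64.3 at Psenen, and 73.6 and 32.5 at Hdac1. Psenen shares its start region with U2af1l4. Foxn3 alone lay at Adam10 (percentile 5.3) and Aph1c (25.7), which also encode parts of the receptor cleavage machinery. Foxn4 alone lay at Maml1 (10.3) and Ep300 (22.3), which encode coactivators of the Notch complex.

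Hes6, a HES family gene of differentiating neurons, had Foxn4 at chr1:91413207-91413451 (percentile 50.8) and Rfx3 at chr1:91412996-91413542 (percentile 12.6), within 107 bp of a start, and no Foxn3 peak there. This start lies inside the gene body. Rfx3 covered all 250 bases before it and Foxn4 229, and they held no match to the letters searched. The 250 bases before the other Hes6 start, at the gene end, met no peak. Rita1 also had Foxn4 (87.6) with Rfx3 (21.4), at a start region shared with Ddx54. Hey1, a Notch target, had only Rfx3 (16.5), at a start with another annotated locus within 1 kb. Some HES and HEY genes had a peak at the start, or at a gene end for Hes1. Of these, Hes1 had Foxn3 and Foxn4, Hes5 and Hes6 (at its inner start) had Foxn4 and Rfx3, and Hey1 had Rfx3. The Rfx3 percentiles there were between 12.6 and 20.5. Hes2, Hes3, Hes7, Hey2 and Heyl had no such peak.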

How the data were processed

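The authors assayed E16 retina by CUT&RUN and deposited 1 peak list per antibody. Per the submitters' processing notes, cutadapt, Bowtie2, UMI-tools, bedtools and SEACR were used, with no role or version stated here. Build mm10 is named per the file headers. The deposited score of a peak has no stated unit, and use of IgG or pooling of libraries is not given in the sources used here.

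Peak and gene coordinates count from 1. Genes were the 21887 protein-coding genes of chromosomes 1 to 19, X and Y in RefSeq GRCm38.p6, the same assembly as mm10. Gene starts came from the RefSeq promoter table, which had 17492 of these genes and 8 of the 10 members. For others either end of the gene was used. Windows were the gene body plus 50 kb, and overlap was 1 bp or more. All 10 members were named. Of 53 other pathway genes, those with a peak of every list or at a gene start were named. Sequences of Fam120b and Sec16a were chosen after values were seen. The windows before the Numb and Hes6 starts were searched as well, held no match and are not printed. Members and lists were chosen with earlier results of these data known. Counting was tested on simulated peaks and checked against bedtools 2.31.1 (Python 3.11.15, pandas 2.3.3, scipy 1.17.1). No samples were compared and no test was made, because no list gives values of single libraries.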

Additional observations from a re-analysis of the deposited data

How the results depend on the processing

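Of 69 recomputed counts, 38 stayed within 1.5 times the reported value and 31 moved beyond it. Most depended on the width of the window. The shares over all genes moved with the window too. With a flank of 10 kb, Foxn3 was at 2 of the 10 genes (3 peaks) and Rfx3 at 2 (4 peaks). Of the 53 other genes Foxn3, Foxn4 and Rfx3 were then at 13, 10 and 18, and of all genes at 15.3%, 10.5% and 19.2%. Using the gene body only, Foxn3 was at 2 genes (3 peaks), Rfx3 at 2 (2 peaks) and Foxn4 had 4 peaks. Of the 53 genes 12, 6 and 15 then had a Foxn3, Foxn4 or Rfx3 peak, and of all genes 10.4%, 6.86% and 13.6%. With a flank of 100 kb, Rfx3 had 14 peaks and Foxn4 was at 27 of the 53 genes. The shares over all genes were then 37.3% (Foxn3), 29.1% (Foxn4) and 43.7% (Rfx3). Assigning each peak only to its nearest gene left Foxn3 at 2 genes (3 peaks) and Rfx3 at 3 (5 peaks). Foxn4 was at 3 genes (Notch1, Hes1 and Hes5) under a flank of 10 kb, the gene body and the nearest gene. Its share over all genes was 10.5% for that flank and 6.86% for the body, and was not computed for the nearest gene. Nothing is read from these counts about the genes as a group.

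Using only peaks at or above the median score left 4 Foxn4 and 5 Rfx3 peaks, of which 3 and 4 were shared. Foxn3 and Rfx3 were then at 18 and 21 of the 53 genes, and at 17.5% and 20.7% of all genes. Hes1 had no peak under this rule. Within 5 kb of a start, Foxn3 and Rfx3 were each at 2 members, with Notch1 added. The share over all genes was not computed for that distance. Without Notch1, an alternative chosen after seeing the data, 3 Foxn3 and 5 Foxn4 peaks were left. Counting by midpoint and other overlap rules moved no count by more than 1.5 times. Read depth and the peak threshold are unknown, so a missing peak cannot be read as missing binding. No paired analysis was possible because each antibody has 1 list with no values per replicate.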
